A study of Mus musculus with 20 samples.

Results

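The respiratory chain genes of epididymal white adipose tissue (eWAT) were followed across lean, obese and treated mice. They were picked by symbol alone, as the rows whose names begin with Nduf plus a, b, c, s or v, Uqcr, Cox4 to Cox8, Atp5, mt-Nd, mt-Co, mt-Atp or mt-Cytb, together with Sdha, Sdhb, Sdhc and Sdhd. This gave 106 of the 14776 genes in the table, 94 coded in the nucleus and 12 in the mitochondrial genome. Male C57BL/6J mice entered the study at 6 weeks of age. The normal control group (NC, n = 6) ate maintenance chow, the HFD group (n = 7) ate a diet in which fat gave 60% of the energy for 14 weeks and then received saline by gavage for 6 more weeks on that diet, and the SZ-A group (n = 7) had the same diet with 400 mg/kg of SZ-A a day by gavage over those 6 weeks. SZ-A is an alkaloid extract of mulberry twig. All mice were fasted overnight before the tissue was taken, and 1 RNA library was made from the eWAT of each mouse after poly(A) selection.

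The respiratory chain passes electrons from NADH and succinate to oxygen and uses the energy to make ATP. Complex I oxidises NADH, complex II (succinate dehydrogenase, SDH) oxidises succinate, complex III hands electrons to cytochrome c, complex IV (cytochrome c oxidase) reduces oxygen, and complex V is the ATP synthase. Complex II is coded wholly in the nucleus, whereas the other complexes combine nuclear subunits with a few subunits made from mitochondrial DNA. Many nuclear subunits are small proteins that surround the catalytic core and are called supernumerary. In white fat the chain serves the adipocyte's fatty acid and lipid metabolism, and macrophages and other cells of the tissue hold mitochondria too.

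The members comprised 79 nuclear subunits, of which 36 belong to complex I, 4 to complex II, 8 to complex III, 15 to complex IV and 16 to complex V. The other nuclear members were 8 complex I assembly factors (Ndufaf1 to Ndufaf8), Ndufa4 and its relative Ndufa4l2, Atp5s, and 4 rows that the annotation treats as pseudogenes or noncoding. The mitochondrial genome supplied 7 subunits of complex I, mt-Cytb of complex III, 3 subunits of complex IV and mt-Atp6 of complex V. Cox6a2, Cox7b2, Cox8c and mt-Atp8 were not analysed here. All 106 members passed the filter on low values in each comparison, and each had a level above 0 in each of the 20 mice, as did every gene of the table.

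For the nuclear subunits, promoter sequence was at hand in RefSeq (GRCm38.p6) for 65 of the 79. The windows held 300 bases around the gene start, most of them upstream, and 5 short motifs were looked for on either strand. The NRF1-type motif GCGCATGC lay in 10 of the 65 windows (15.4%), against 2.8% of 27025 windows of all genes. The ETS-type motif CCGGAAGT lay in 5 (7.69%, against 4%), the YY1-type motif AAGATGGC in 8 (12.3%, against 2.88%), the ERR-type motif AAGGTCA in 8 (12.3%, against 4.66%) and the TATA-type motif TATAAA in 6 (9.23%, against 14.2%). The NRF1-type motif reads nearly the same on both strands, so a match and its reverse complement can overlap. Of the 37 subunits with a window that were lower in HFD mice by the test given further on, 3 held the NRF1-type motif, as did 7 of the 28 that were not called. In the same order the ETS-type motif lay in 4 and 1, the YY1-type in 5 and 3, the ERR-type in 5 and 3 and the TATA-type in 4 and 2, and none of these splits was tested. Stretches of 120 bases upstream of the start are printed here, 5′ to 3′ along the gene, for 3 subunits that were called lower in HFD and higher in SZ-A mice (Ndufa6, Ndufa8 and Uqcrh) and for 2 that were called in neither comparison (Sdhb and Cox6a1), with the motif in capitals.
Ndufa6 (chr15:82354292-82354411, minus strand, NRF1-type): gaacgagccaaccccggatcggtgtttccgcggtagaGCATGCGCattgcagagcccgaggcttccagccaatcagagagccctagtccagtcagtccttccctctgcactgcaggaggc
Ndufa8 (chr2:36049339-36049458, minus strand, NRF1-type): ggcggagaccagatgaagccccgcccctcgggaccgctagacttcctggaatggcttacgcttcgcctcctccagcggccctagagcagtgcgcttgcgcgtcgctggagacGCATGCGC
Uqcrh (chr4:116075071-116075190, minus strand, ETS-type): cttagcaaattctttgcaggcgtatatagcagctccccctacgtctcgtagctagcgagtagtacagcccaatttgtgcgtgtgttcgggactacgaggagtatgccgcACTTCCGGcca
Sdhb (chr4:140961151-140961270, plus strand, NRF1-type): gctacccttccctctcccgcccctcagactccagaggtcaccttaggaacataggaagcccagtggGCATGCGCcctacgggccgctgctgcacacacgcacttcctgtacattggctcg
Cox6a1 (chr5:115349021-115349140, minus strand, NRF1-type): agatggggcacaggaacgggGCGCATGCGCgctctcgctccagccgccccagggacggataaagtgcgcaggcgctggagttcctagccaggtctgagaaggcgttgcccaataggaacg

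Levels are given as FPKM, fragments scaled to transcript length and to a size for each library, as the authors deposited them. From 13567667 to 19388628 reads per mouse fell on the genes of the table. The nuclear members took 0.985 to 1.54% of these reads in NC mice, 0.707 to 0.944% in HFD mice and 0.86 to 1.23% in SZ-A mice. The mitochondrially coded members took 3.11 to 8.22% in NC mice, 1.62 to 2.82% in HFD mice and 1.57 to 10.6% in SZ-A mice.

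Several mice stood apart from their group in marker sums or in reads on mitochondrial ribosomal RNAs. NC replicate 6 had 523 FPKM summed over 15 of 16 listed adipocyte markers, against at least 9598 FPKM in each of the other NC mice, and it had the highest sum of epididymal epithelium markers (3696 FPKM, 5 of 36 listed genes in the table). Those 5 were Lcn2, Npc2, Sult1e1, Adgrg2 and Krt18, which also make up the epididymal score used further on. Whether they mark epididymal cells alone was not tested. The next highest epididymal sums were those of NC replicate 1 (1435 FPKM), SZ-A replicate 2 (880 FPKM) and SZ-A replicate 7 (697 FPKM), while HFD mice had 179 to 273 FPKM. SZ-A replicate 5 had 0.943% of its reads on the mitochondrial ribosomal RNAs, against at most 0.183% in every other mouse. The 20 listed macrophage markers summed to 262 to 1049 FPKM in NC, 5291 to 14077 FPKM in HFD and 2076 to 7139 FPKM in SZ-A mice, and the adipocyte markers to 1535 to 6849 FPKM in HFD and 4762 to 15357 FPKM in SZ-A mice. Of 12 brown and beige adipocyte markers 3 were in the table, with sums of 1.002 to 6.18 FPKM. In whole tissue, fewer cells of a type and less RNA per cell cannot be told apart, and the part of these shifts in the results that follow was not tested.

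Under the high-fat diet a large share of the chain was lower and no member was higher. In limma's moderated test on log2(FPKM + 1), with Benjamini-Hochberg adjustment over all 14706 genes tested and a threshold of 0.05, 55 of the 106 members (51.9%) were lower in HFD than in NC mice. With an epididymal marker score as a covariate the number was 15. When replicate number was entered as a block, 33 of the 55 stayed called. Of all genes tested 20.1% were lower and 21% were higher. No member was higher at an unadjusted p under 0.05 or with voom on the recovered reads either. The median log2 fold change was -0.56 over the nuclear subunits and -0.98 over the mitochondrially coded members, against -0.04 over all genes. A log2 fold change past 1.5 with an adjusted p under 0.05, the threshold in the study's methods, was reached by 2 members, mt-Co3 and mt-Atp6, and by 7.97% of all genes. Both are among the 5 mitochondrially coded members whose levels are uncertain, as described further on. The call of mt-Co3 was lost in 9 of 13 fits made without 1 mouse. For 26 members (24.5%) every HFD mouse lay below every NC mouse, against 7.77% of all genes, and for none did every HFD mouse lie above, against 12.7%.

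The complexes differed in how many of their nuclear subunits were lower in HFD mice. Complex I had 24 of 36 lower (66.7%, median log2 fold change -0.63), complex III 3 of 8 (37.5%, -0.61), complex IV 7 of 15 (46.7%, -0.51) and complex V 7 of 16 (43.8%, -0.48). Complex II had 1 of 4 (25%, -0.10), near the 20.1% of all genes that were lower. That share of all genes also stands beside the counts by part of a complex given below. Of the assembly factors 4 of 8 were lower (-0.36). These are counts and medians, and a difference between complexes was not tested.

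**Figure D1:**
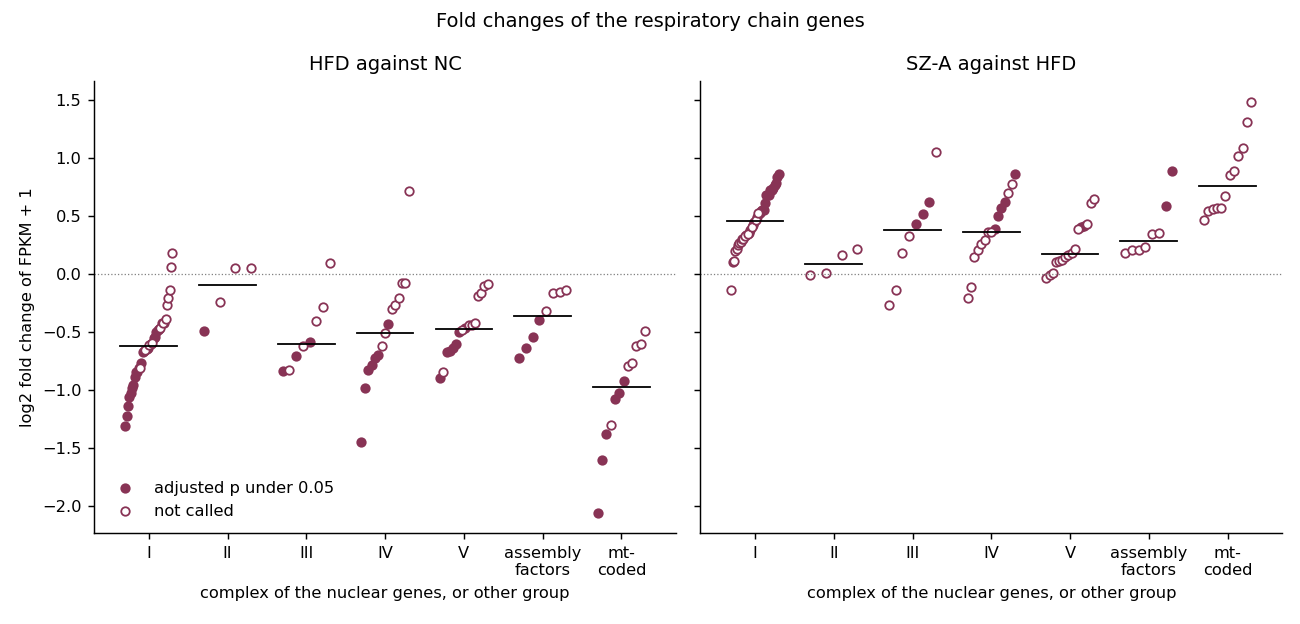
Log2 fold change of FPKM + 1 (vertical axis) for the nuclear subunits of each complex, the assembly factors and the mitochondrially coded members, in HFD against NC mice (left) and SZ-A against HFD mice (right). Each point is a gene, filled where the adjusted p was under 0.05, and the bars are medians: most points lie below 0 on the left and above 0 on the right, with complex II nearest to 0 in both.

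In complex I, the 29 supernumerary subunits had a median log2 fold change of -0.66, and 19 were lower in HFD mice. Ndufb9, a supernumerary subunit of the membrane arm, had 60.7 to 104.3 FPKM in NC mice with a median of 76.9, 25.1 to 42.0 FPKM in HFD mice with a median of 31.5, and 37.0 to 87.9 FPKM in SZ-A mice with a median of 60.2. No HFD mouse reached the lowest NC mouse, and the log2 fold change was -1.22 ± 0.17 (SE, limma adjusted p = 7.18e-05). The gene lies at chr15:58933756-58939488 (GRCm38, plus strand), and 17.0% of the 100-base windows of its transcript also occur in another annotated gene (Gm49356), so reads there may be shared. Ndufa1, a small membrane-arm subunit, had 72.2 to 379.7 FPKM in NC and 49.9 to 75.8 FPKM in HFD mice (-1.31 ± 0.32, adjusted p = 0.00485), with NC replicates spread more widely than for Ndufb9, and with the epididymal score as a covariate its log2 fold change was 0.16.

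The 7 nuclear core subunits of complex I, which carry the flavin and the iron-sulfur clusters or bind them in place, gave a mixed picture, with 5 of 7 lower in HFD mice and a median of -0.48. Ndufs3, a core subunit of the matrix arm at chr2:90894634-90904827 (minus strand), had 33.6 to 48.2 FPKM in NC mice (median 39.8), 22.7 to 30.0 FPKM in HFD mice (median 24.2) and 30.05 to 43.9 FPKM in SZ-A mice (median 39.9). HFD mice lay below all others, 19.9% of the gene's windows recur in Gm12251, and the log2 fold change against NC was -0.66 ± 0.12 (adjusted p = 0.000507). Ndufs7, which holds the last iron-sulfur cluster before ubiquinone, was lower by a similar amount (-0.65, adjusted p = 0.00125), as were Ndufv2 (-0.64, adjusted p = 0.00841) and Ndufv1 (-0.48, adjusted p = 0.0167). Ndufs8 had a log2 fold change of -0.27 (adjusted p = 0.288). Ndufs1, the largest core subunit, had 4.97 to 12.1 FPKM in NC and 9.06 to 10.3 FPKM in HFD mice, a log2 fold change of 0.18 (adjusted p = 0.408).

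In complex II only 1 subunit was called. Sdha, the flavoprotein that oxidises succinate, had 61.6 to 108.5 FPKM in NC and 48.5 to 85.4 FPKM in HFD mice, and it was lower by -0.50 ± 0.17 on the log2 scale (adjusted p = 0.0279), a call lost in 6 of 13 fits made without 1 mouse. Sdhb, the iron-sulfur subunit whose promoter is printed above, had a mean of 52.0 ± 16.3 FPKM (SD, n = 6) in NC and 51.9 ± 4.3 FPKM (n = 7) in HFD mice. The membrane anchors Sdhc (log2 fold change 0.05, adjusted p = 0.762) and Sdhd (-0.24, adjusted p = 0.146) did not pass the test either.

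In complex III, 2 of the 5 small subunits and 1 of the 3 core and Rieske proteins were lower in HFD mice, where 20.1% of all genes were lower. Uqcrh, the hinge protein next to cytochrome c1, had 117.4 to 200.3 FPKM in NC, 73.5 to 100.7 FPKM in HFD and 85.6 to 135.3 FPKM in SZ-A mice. The NC and HFD groups did not overlap, with a log2 fold change of -0.84 ± 0.15 (adjusted p = 0.000602). Uqcr10 was lower as well (-0.71, adjusted p = 0.00214), and so was the Rieske iron-sulfur protein Uqcrfs1 (-0.59, adjusted p = 0.00839). The core proteins gave log2 fold changes of 0.10 for Uqcrc1 (adjusted p = 0.582) and -0.28 for Uqcrc2 (adjusted p = 0.114).

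Among the nuclear subunits of complex IV the largest fall was that of Cox6c, a small membrane subunit at chr15:35925886-35938246 (minus strand). It had 58.7 to 185.0 FPKM in NC, 31.7 to 47.6 FPKM in HFD and 34.2 to 85.5 FPKM in SZ-A mice, and its log2 fold change in HFD mice was -1.45 ± 0.22 (adjusted p = 0.000192). Cox4i1, a regulatory subunit, fell by 0.99 (adjusted p = 0.00921), Cox7a2 by 0.72 (adjusted p = 0.000772), Cox6b2 by 0.79 (adjusted p = 0.0142) and Cox8a by 0.70 (adjusted p = 0.0366), the last lost in 9 of 13 fits made without 1 mouse. Cox5a, the matrix-side partner of Cox4i1, had 20.2 to 34.4 FPKM in NC and 18.9 to 31.6 FPKM in HFD mice (log2 fold change -0.08, adjusted p = 0.687). Values that did not pass the test were -0.51 for Cox5b (adjusted p = 0.192), -0.31 for Cox6a1 (adjusted p = 0.242), -0.27 for Cox6b1 (adjusted p = 0.398) and -0.62 for Cox7a2l (adjusted p = 0.0511). Ndufa4, once counted in complex I and now placed in complex IV, fell by 0.65 (adjusted p = 0.00622).

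Of each cytochrome c oxidase pair, the tissue-specific isoform was the minor one in every group. Cox8b, the form typical of muscle and brown fat, made up 1.34 ± 0.82% (SD, n = 6) of the summed FPKM of Cox8a and Cox8b in NC mice, 3.19 ± 1.56% (n = 7) in HFD and 1.54 ± 0.69% (n = 7) in SZ-A mice, and the groups overlapped. Cox7a1, likewise typical of muscle and brown fat, made up 1.86 ± 0.74%, 2.46 ± 0.76% and 2.69 ± 1.15% of its pair with Cox7a2 in the same order. Cox4i2, a form known from lung and low oxygen, made up 1.20 ± 0.73%, 1.85 ± 0.46% and 1.49 ± 0.28% of its pair with Cox4i1, and Cox6b2, known from testis, 1.31 ± 0.44%, 0.683 ± 0.302% and 1.37 ± 0.87% of its pair with Cox6b1. Ndufa4l2, a relative of Ndufa4 known from low oxygen, made up more of its pair, 6.18 ± 5.12%, 11.9 ± 2.8% and 11.4 ± 6.0%, with up to 23.2% in an SZ-A mouse. Cox8b, Cox7a1, Cox4i2 and Ndufa4l2 were called in no comparison. NC replicate 6, the mouse with few adipocyte transcripts, had the lowest level of Cox4i2 (0.261 FPKM), Cox8b (0.381 FPKM) and Ndufa4l2 (0.439 FPKM) among NC mice, and without it Cox4i2 was lower in HFD than in NC mice (log2 fold change -0.48).

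In complex V, 2 of 5 subunits of the F1 head, 1 of 3 of the c ring, 2 of 4 of the peripheral stalk and 2 of 4 of the other membrane subunits were lower in HFD mice. Of all genes 20.1% were lower, and a difference between these parts was not tested. Atp5h, the d subunit of the stalk (chr11:115415689-115419962, minus strand), had 101.0 to 154.5 FPKM in NC mice and 49.4 to 87.0 FPKM in HFD mice, with no overlap (log2 fold change -0.90 ± 0.16, adjusted p = 0.000775), and 16.2% of its windows recur in Gm10250. Atp5j2 (-0.67, adjusted p = 0.00224) and Atp5j (-0.61, adjusted p = 0.00207) were lower too. The alpha subunit Atp5a1 had 156.3 to 255.5 FPKM in NC and 183.9 to 223.8 FPKM in HFD mice (log2 fold change -0.09, adjusted p = 0.657). The beta subunit Atp5b had 109.4 to 332.0 FPKM in NC and 160.5 to 269.7 FPKM in HFD mice (-0.11, adjusted p = 0.752).

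**Figure D2:**
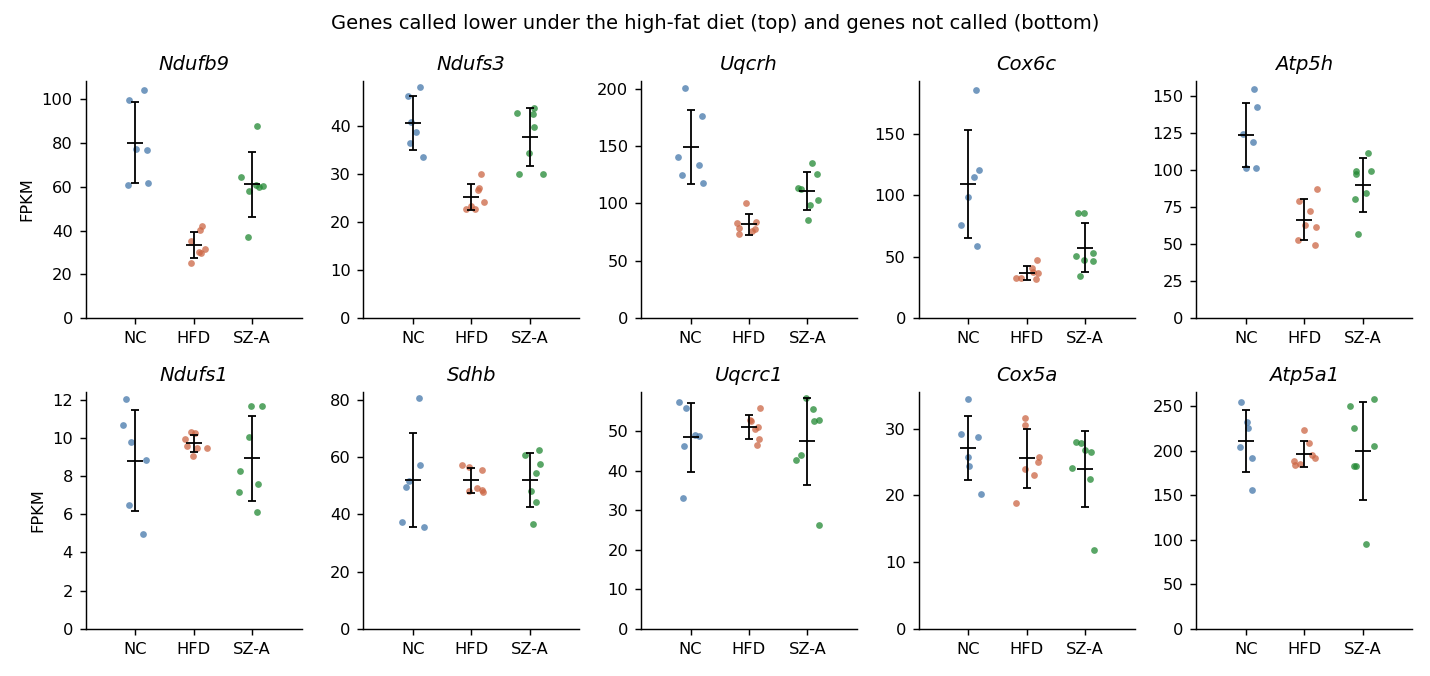
FPKM (vertical axis) of 10 nuclear subunits in each NC, HFD and SZ-A mouse, with the mean and SD as bars. In the top row (Ndufb9, Ndufs3, Uqcrh, Cox6c and Atp5h) every HFD mouse lies below every NC mouse, and in the bottom row (Ndufs1, Sdhb, Uqcrc1, Cox5a and Atp5a1) the groups overlap throughout.

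SZ-A-treated mice had higher levels of a part of the nuclear subunits than HFD mice. By the same test 34 of the 106 members (32.1%) were higher and none was lower, against 9.47% higher and 13.3% lower of all 14695 genes tested. Since this comparison and HFD against NC share the HFD mice, their values are given side by side only. Of the 55 members lower in HFD mice, 28 were higher in SZ-A than HFD mice and 27 were not called, and 6 members that were not called in HFD against NC mice were higher in SZ-A mice. The median log2 fold change was 0.36 over the nuclear subunits and 0.03 over all genes. None was lower at an unadjusted p under 0.05 or with voom. No member passed a log2 fold change of 1.5, against 0.864% of all genes. For 3 members every SZ-A mouse lay above every HFD mouse (2.83%, against 2.07% of all genes), and for none below (against 4.01%). The number higher was 18 with all 3 groups in 1 fit. It also depended on single mice, and it was 19 without SZ-A replicate 3, 20 without HFD replicate 5 or 7, 21 without HFD replicate 3 and 22 without HFD replicate 1.

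By complex, 21 of 36 subunits of complex I were higher in SZ-A mice (58.3%, median log2 fold change 0.45), 3 of 8 of complex III (37.5%, 0.38) and 5 of 15 of complex IV (33.3%, 0.36). Complex V had 2 of 16 (12.5%, 0.17), near the 9.47% of all genes that were higher, and complex II had none (0.08). A difference between complexes was not tested here either. In complex I, 18 of the 29 supernumerary and 3 of the 7 nuclear core subunits were higher. The 3 members without overlap, a share near that of all genes (2.83% against 2.07%), were Ndufs3, Ndufa7 and Ndufc1. Ndufs3 rose by 0.55 ± 0.11 (SE, adjusted p = 0.00426), from the levels given above. Ndufa7, a supernumerary subunit of the matrix arm, had 58.2 to 118.2 FPKM in NC, 38.3 to 50.8 FPKM in HFD and 54.5 to 96.7 FPKM in SZ-A mice (0.68 ± 0.13, adjusted p = 0.00242). Ndufc1, a small membrane-arm subunit, had 35.1 to 80.0 FPKM in NC, 26.9 to 31.9 FPKM in HFD and 33.4 to 50.2 FPKM in SZ-A mice (0.52 ± 0.10, adjusted p = 0.00346). Ndufa7 and Ndufc1 were named for this lack of overlap, after their values were seen.

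Other complex I members with large rises were Ndufa2, a small matrix-arm subunit (log2 fold change 0.86, adjusted p = 0.0159), and Ndufb9 (0.83, adjusted p = 0.00303). Ndufv1, which binds NADH and the flavin, rose by 0.44 (adjusted p = 0.0364, lost in 8 of 14 fits made without 1 mouse). Ndufs7 rose by 0.38 (adjusted p = 0.0239, lost in 3 of 14). Among the core subunits, Ndufs1 (-0.14), Ndufs8 (0.11) and Ndufv2 (0.26) did not pass the test. The assembly factors Ndufaf8 (0.88, adjusted p = 0.029, lost in 5 of 14 fits made without 1 mouse) and Ndufaf3 (0.58, adjusted p = 0.00714) were higher. Both had been lower in HFD than in NC mice (-0.64 and -0.73).

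In complex III, Uqcrq (0.62, adjusted p = 0.0277, lost in 6 of 14 fits made without 1 mouse), Uqcr10 (0.51, adjusted p = 0.021) and Uqcrh (0.43, adjusted p = 0.0191) were higher in SZ-A mice, while Uqcrfs1 (0.18), Uqcrc1 (-0.14) and Uqcrc2 (-0.27) did not pass the test. In complex IV, Cox8a, the smallest of its subunits and the common isoform, had 345.3 to 864.1 FPKM in NC, 281.9 to 541.6 FPKM in HFD and 373.4 to 937.8 FPKM in SZ-A mice, a rise of 0.86 ± 0.22 (adjusted p = 0.0126). Cox4i1 (0.62, adjusted p = 0.0167), Cox6c (0.56, adjusted p = 0.0418) and Cox7a2 (0.38, adjusted p = 0.0406) were higher as well, but the calls of Cox6c and Cox7a2 were each lost in 11 of 14 fits made without 1 mouse. In complex V only Atp5j2 (0.41, adjusted p = 0.0153) and Atp5j (0.40, adjusted p = 0.0162) were higher, and Atp5h (0.43, adjusted p = 0.0726), Atp5a1 (-0.03) and Atp5b (0.01) did not pass the test. The 4 SDH subunits had log2 fold changes of -0.01 to 0.22, with adjusted p from 0.422 for Sdhd to 0.976 for Sdhc.

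Between SZ-A and NC mice no member was called in either direction, where 4.15% of all 14718 genes tested were higher, 0.455% lower and 1.79% past a log2 fold change of 1.5. At an unadjusted p under 0.05 in limma, 7 members were lower and none was higher, and voom called none. The share of all genes under that unadjusted threshold is not given here, so whether 7 is more than that share was not tested. The median log2 fold change was -0.17 over the nuclear subunits and -0.22 over the mitochondrially coded members, and 79 of the 106 members had a negative value. The value farthest from 0 among nuclear subunits was that of Cox6c (-0.89 ± 0.28, adjusted p = 0.0916). A missed threshold does not show that the levels were equal. Without NC replicate 3, 2 members were lower in SZ-A than NC mice, Cox6c among them (-1.05).

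**Figure D3:**
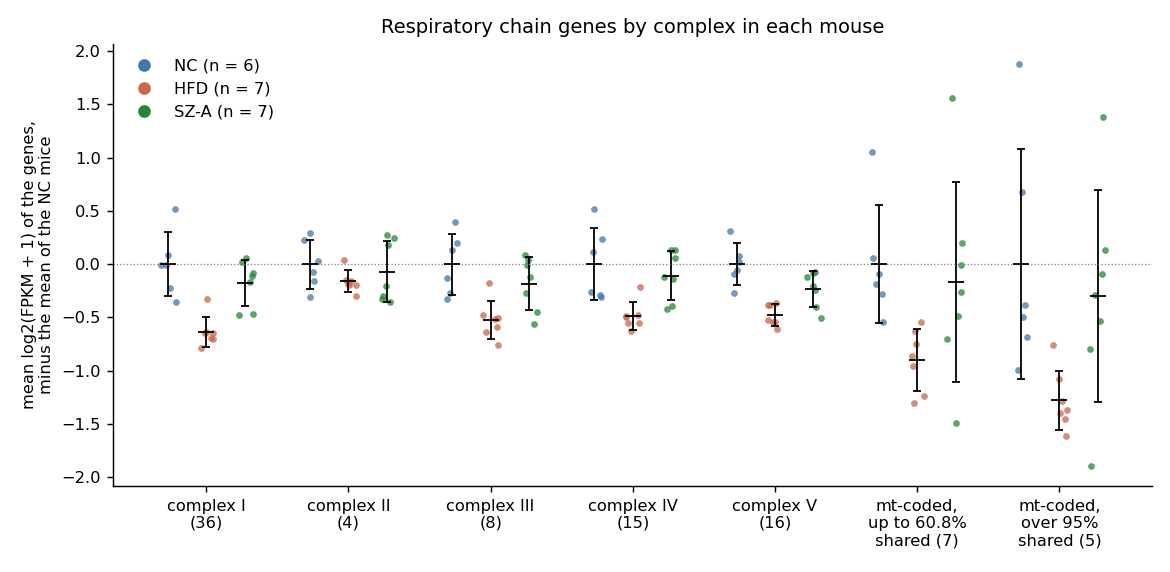
Mean log2(FPKM + 1) over the genes of each complex, minus the mean of the NC mice (vertical axis), for each mouse, with group mean and SD. Brackets give the number of genes, and the mitochondrially coded members are split by how many of their 100-base windows recur in other annotated genes. HFD mice have the lowest mean in every set shown, and the mitochondrially coded members spread most among NC and SZ-A mice.

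The mean log2(FPKM + 1) over the nuclear subunits ran from 5.54 to 6.28 in NC, from 5.16 to 5.57 in HFD and from 5.40 to 5.89 in SZ-A mice. HFD replicate 4, the highest of its group, reached the range of the NC mice. Over the mitochondrially coded members it ran from 9.05 to 10.97 in NC, from 8.14 to 8.72 in HFD and from 7.92 to 11.05 in SZ-A mice. The HFD mice thus lay below all NC mice, while the SZ-A mice covered both groups, with replicate 6 below every other mouse and replicate 5 above. Summed over genes, the mitochondrially coded members had 4.67 ± 1.04 times (SD, n = 6) the FPKM of the nuclear subunits in NC, 3.87 ± 0.89 times (n = 7) in HFD and 5.34 ± 3.88 times (n = 7) in SZ-A mice, with overlap between all groups. In SZ-A mice this ratio ran from 2.35 in replicate 6 to 13.6 in replicate 5.

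All 12 mitochondrially coded members had a negative log2 fold change in HFD against NC mice, and 6 were called lower (50%, against 20.1% of all genes). In complex I, mt-Nd6, the member read from the other strand of the mitochondrial genome (chrM:13552-14070, minus strand), had 2707 to 5702 FPKM in NC and 899 to 1890 FPKM in HFD mice with no overlap (log2 fold change -1.39 ± 0.31, adjusted p = 0.0029). The study's methods do not say whether reads were counted by strand, so this level may include reads from the opposite strand. The part of such reads in the mt-Nd6 level was not tested. Also lower were mt-Nd4 (-1.03, adjusted p = 0.0274) and mt-Nd5 (-0.92, adjusted p = 0.0225), calls lost in 3 and 2 of 13 fits made without 1 mouse. The values of mt-Nd1 (-0.60, adjusted p = 0.223), mt-Nd2 (-0.49, adjusted p = 0.318), mt-Nd3 (-1.31, adjusted p = 0.0589) and mt-Nd4l (-0.62, adjusted p = 0.332) did not pass the test. In complex III, mt-Cytb, which carries the b haems, had 3466 to 15352 FPKM in NC and 2526 to 3624 FPKM in HFD mice (-1.08 ± 0.40, adjusted p = 0.0445). Its call was lost in 10 of 13 fits made without 1 mouse.

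In complex IV, mt-Co1, the catalytic subunit with the oxygen-reducing centre, had 8407 to 18559 FPKM in NC and 4905 to 8267 FPKM in HFD mice. The groups did not overlap, yet the adjusted p was 0.164 (log2 fold change -0.77), and it was 0.0282 when genes under a mean of 1 FPKM were left out and 0.0194 with voom on the recovered reads. For mt-Co2 the log2 fold change was -0.80 (adjusted p = 0.0589), and for mt-Co3 -2.06 ± 0.74 (adjusted p = 0.0378). The groups overlapped for mt-Co3, with 42.4 to 996.0 FPKM in NC and 20.3 to 148.6 FPKM in HFD mice. The proton-channel subunit of complex V, mt-Atp6, had 49.4 to 286.4 FPKM in NC and 18.8 to 47.6 FPKM in HFD mice (-1.60 ± 0.43, adjusted p = 0.00963).

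The levels of 5 mitochondrially coded members are uncertain, since nearly the whole transcript recurs in a nuclear copy that the annotation lists as a gene of its own. The share of 100-base windows found elsewhere was 99.9% for mt-Co3 (in Gm28437), 99.5% for mt-Atp6 (Gm10925) and mt-Co2 (Gm28661), 98.5% for mt-Nd4l (Gm10222) and 97.6% for mt-Nd3 (Gm28438). It was 60.8% for mt-Nd4, 30.8% for mt-Co1, 3.2% for mt-Nd2 and 0 for mt-Nd1, mt-Nd5, mt-Nd6 and mt-Cytb. These 5 had means of 15.3 to 89.4 FPKM in HFD mice, against 1184 to 6455 FPKM for the other 7. Reads that fit a gene and its copy alike can be dropped or split between them, and the part of this in their levels was not tested. The copy of mt-Co3, Gm28437, had 47.7 ± 19.4 FPKM (SD, n = 6) in NC, 15.4 ± 3.8 FPKM (n = 7) in HFD and 87.0 ± 115.5 FPKM (n = 7) in SZ-A mice. Over the 7 members with fewer shared windows, 4 of 7 were lower in HFD mice, with a median log2 fold change of -0.92.

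**Figure D4:**
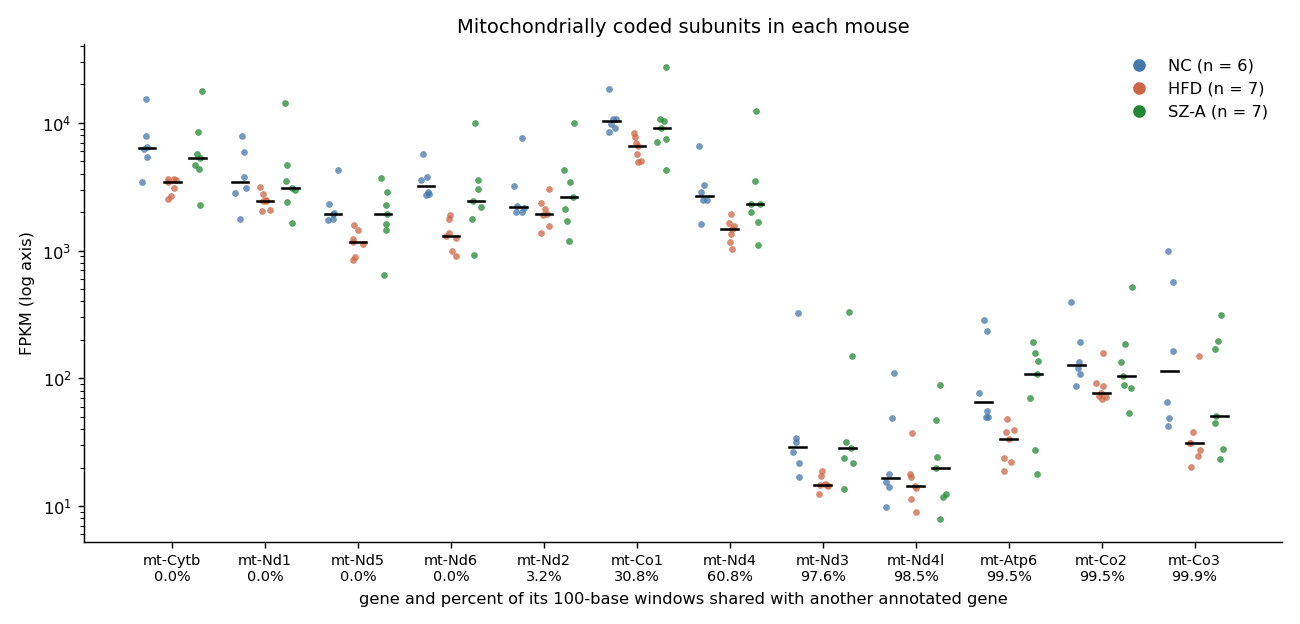
FPKM (vertical log axis) of the 12 mitochondrially coded members in each mouse, with the group median as a bar and, below each name, the percent of its 100-base windows that recur in another annotated gene. The 5 genes with over 95% of windows shared lie below the others, at 15.3 to 89.4 FPKM on average in HFD mice, and single NC and SZ-A mice lie far above their groups.

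In SZ-A against HFD mice none of the 12 was called, although all 12 log2 fold changes were positive and their median was 0.76. At an unadjusted p under 0.05 in limma 4 of the 12 were higher, and voom called none. Here too the share of all genes under the unadjusted threshold is not given, so these 4 cannot be set against it. The largest were those of mt-Nd3 (1.48, adjusted p = 0.069), mt-Atp6 (1.31, adjusted p = 0.0564), mt-Co3 (1.08, adjusted p = 0.192) and mt-Nd6 (1.02, adjusted p = 0.0883). The SZ-A mice scattered widely. For mt-Nd6 they ran from 922 FPKM in replicate 6 to 9958 FPKM in replicate 5 with a median of 2435 FPKM, and for mt-Cytb from 2262 to 17799 FPKM with a median of 5265 FPKM in the same mice. The median over the 12 was 0.51 without SZ-A replicate 5 and 0.998 without SZ-A replicate 6. Without replicate 6, mt-Atp6 (1.65), mt-Nd3 (1.75), mt-Nd6 (1.27), mt-Cytb (1.08) and mt-Nd5 (0.92) were called higher. Whether the nuclear and the mitochondrially coded members changed by different amounts was not tested.

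Among the nuclear subunits, the shortest genes had the medians farthest from 0. The 45 subunits with up to 450 coding bases had a median log2 fold change of -0.63 in HFD against NC and 0.49 in SZ-A against HFD mice. The 23 subunits above that and up to 900 bases had -0.50 and 0.30, and the 11 with over 900 bases had -0.28 and 0.10. Other nuclear protein-coding genes showed an order of the same kind, with medians of -0.25 and 0.22 for 804 genes up to 450 bases, -0.09 and 0.08 for the middle class and 0.03 and -0.02 for those over 900 bases. Spearman's rho between coding length and log2 fold change over the 79 subunits was 0.34 in HFD against NC and -0.44 in SZ-A against HFD and -0.08 in SZ-A against NC mice. These subunits share the same libraries, so rho describes these mice only. RNA quality values were not used here, and the part of length in the fold changes was not tested.

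**Figure D5:**
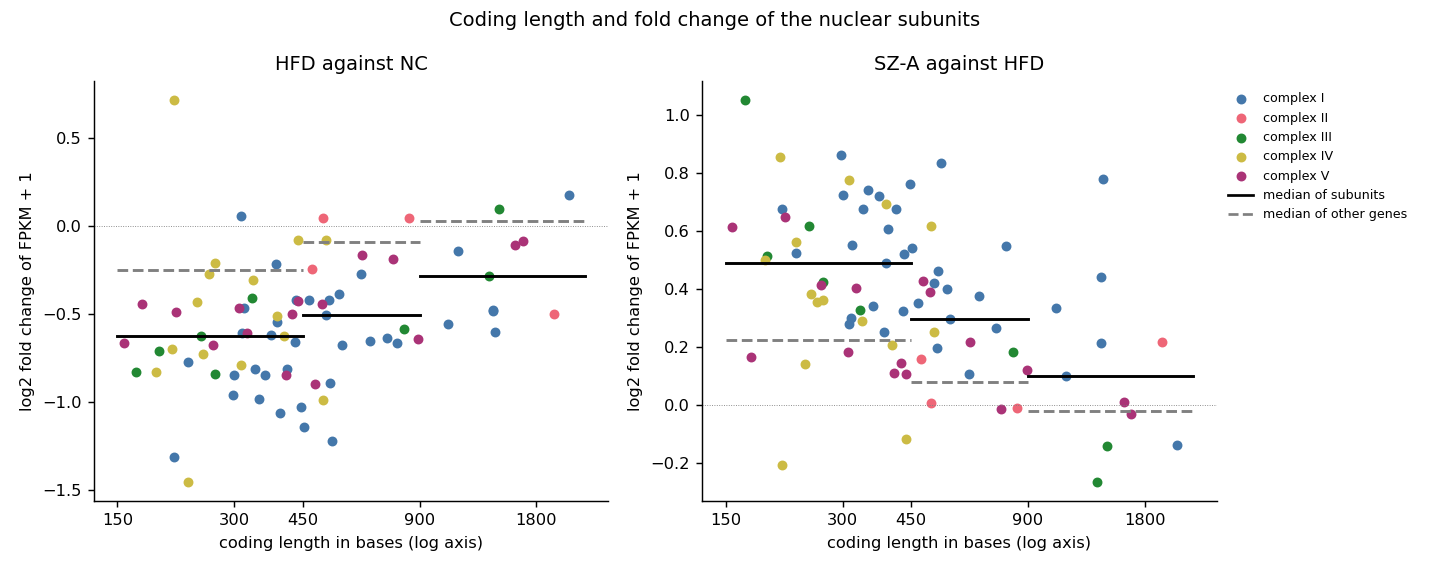
Log2 fold change of FPKM + 1 (vertical axis) against coding length in bases (horizontal log axis) for the 79 nuclear subunits, coloured by complex. Solid bars are medians of the subunits and dashed bars medians of other nuclear protein-coding genes in the same length class: both move towards 0 from short to long genes, and the subunits lie farther from 0 than the other genes in each class.

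Genes around the chain were taken from lists, whose shares are set beside those of all genes (20.1% lower and 21% higher in HFD, 9.47% higher and 13.3% lower in SZ-A mice). Of 15 genes for cytochrome c, cytochrome c1 and coenzyme Q synthesis, 6 (40%) were lower in HFD than in NC mice (median log2 fold change -0.26), all of them for coenzyme Q synthesis, such as Coq8a (-0.88) and Coq4 (-0.61, adjusted p = 0.00182). Coq4, Coq2 and Pdss2 were higher in SZ-A than HFD mice (0.57, 0.58 and 0.31). Cyc1 (-0.14) and Cycs (-0.37) did not pass the test in HFD mice. Of 44 assembly factors outside the members, 11 (25%, near the share of all genes) were lower in HFD mice (median -0.22), and 8 (18.2%) were higher in SZ-A mice (median 0.21), Uqcc3 of complex III in both (-0.997 and 0.855).

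Of 28 genes for transcription, replication and RNA handling of mitochondrial DNA, 11 (39.3%) were lower in HFD mice (median -0.27). Among them was Tfam, which packs mitochondrial DNA and helps to start its transcription (-0.37, adjusted p = 0.00894). The helicase Twnk (-0.77, adjusted p = 0.00105) and Hsd17b10, part of the mitochondrial RNase P (-1.17, adjusted p = 0.000435), were lower too. In SZ-A against HFD mice 4 (14.3%) were higher (median 0.15), with Twnk at 0.48 (adjusted p = 0.00228), and Tfam had 0.04 (adjusted p = 0.829). Of 14 regulators of respiratory genes, 3 (21.4%) were lower and 4 (28.6%) higher in HFD mice, shares near those of all genes. Ppargc1a, a coactivator of mitochondrial biogenesis, fell by 0.40 (adjusted p = 0.032) from low levels, whereas its relative Pprc1 rose by 0.74 (adjusted p = 0.0011). In SZ-A against HFD mice 1 regulator was higher (Esrrg, 0.51) and 2 were lower (Pprc1, -0.41, and Ppargc1b, -0.25). Of 14 tricarboxylic acid cycle enzymes, only Suclg2 was called, lower in HFD (-0.89) and higher in SZ-A mice (0.50).

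Counts of called cell type markers are given with their shares. Of all genes 20.1% were lower and 21% higher in HFD, and 9.47% higher and 13.3% lower in SZ-A mice. Of 20 macrophage markers 19 (95%) were higher in HFD than in NC mice and 18 (90%) lower in SZ-A than HFD mice. Of 15 adipocyte markers 2 (13.3%) were lower and 1 (6.67%) higher in HFD mice, and 2 (13.3%) were higher in SZ-A mice. These adipocyte shares were below or near those of all genes. Of 8 smooth muscle markers 5 (62.5%) were lower in HFD and 2 (25%) higher in SZ-A mice. Of 5 epididymal markers 2 (40%) were lower in HFD and 1 (20%) higher in SZ-A mice. Of 10 endothelial markers none was called in HFD and 3 (30%) were higher in SZ-A mice. Of 4 skeletal muscle markers 2 (50%) were higher in HFD and 1 (25%) in SZ-A mice. The single male germ cell marker in the table was lower in HFD and higher in SZ-A mice. Of 3 brown and beige markers 1 (33.3%) was higher in HFD and 1 (33.3%) lower in SZ-A mice.

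The mice that stood apart were then left out, in sets chosen after the data were seen. With NC replicate 6 and SZ-A replicate 5 left out, 62 members were lower in HFD than in NC mice and 35 higher in SZ-A than HFD mice. With the 4 mice of the highest epididymal sums left out, the counts were 54 and 38, and the median of the nuclear subunits in HFD against NC mice was -0.43. With an epididymal score in the model, 15 members were lower in HFD mice, 7 of them among the 55, and the median of the nuclear subunits was -0.32. That score was higher in each NC than in each HFD mouse, so it and the diet cannot be told apart well.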

How the data were processed

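Libraries were prepared with poly(A) selection and sequenced as 150 bp paired-end reads. The authors aligned them to GRCm38 with HISAT2 2.0.5, and the submitters' processing notes name featureCounts 1.5.0-p3. The authors deposited FPKM per gene, and how reads were scaled to libraries is not given in the sources used here. The library size that the FPKM imply was not the plain total of reads. In HFD replicate 1 it was 15406890, against 17216011 reads on the genes of the table. Each mouse's median ratio to the geometric mean of all mice lay between 0.994 and 1.023. Every gene listed was above 0 in all 20 mice. Symbols and coding lengths came from GENCODE M21, in which 14770 of 14776 genes were found.

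Members and lists were chosen with earlier results of these data known. Named genes were the mitochondrially coded members, SDH, cytochrome c oxidase isoforms with Ndufa4 and Ndufa4l2, nuclear core subunits, the 2 largest called rises and falls per comparison in complexes I, III, IV, V and the assembly factors, and members past a log2 fold change of 1.5. Genes averaging 0.1 FPKM or more in the 2 groups of a comparison entered limma 3.58.1 (R 4.3.3) with a mean-variance trend, 2 groups per fit, on log2(FPKM + 1). Fold changes are on that scale, which understates low genes. Whole reads were recovered from the FPKM (95% or more of values under 1000 reads within 0.01 of a whole number) for voom. The script was tested on simulated data. Replicates were mice, and p-values cover the spread between them. No 2 mice had identical values. The study's text gives 7 mice in each group, whereas the labels give 6 NC mice. Values of 1 member named by the rule are not reported here.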

Additional observations from a re-analysis of the deposited data

Results flagged for a closer look

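In 23 of 189 groups of mice tested, a single mouse lay far from the rest of its group by Dixon's criterion, which chance alone meets in about 1 in 20 groups. SZ-A replicate 5 was low for Atp5a1 (95.2 FPKM), Cox5a (11.8 FPKM), Uqcrc1 (26.4 FPKM) and Uqcrc2 (10.5 FPKM), and high for the share of reads on mitochondrially coded members (10.6%). NC replicate 1 was high for that share (8.22%) and for mt-Co1 (18559 FPKM), mt-Nd2 (7590 FPKM), mt-Nd3 (323 FPKM) and mt-Nd5 (4268 FPKM). HFD replicate 4 was high for Cox6a1 (476 FPKM) and mt-Co2 (157 FPKM), and for the mean log2(FPKM + 1) of complex I (5.18), complex IV (5.75) and all nuclear subunits (5.57). HFD replicate 2 was low for Cox6b1 (113 FPKM), Ndufa4l2 (5.92 FPKM) and Sdhd (54.0 FPKM). HFD replicate 3 was low for Ndufa1 (49.9 FPKM) and high for mt-Co3 (149 FPKM). HFD replicate 1 was high for Uqcrh (101 FPKM), SZ-A replicate 6 was low for Atp5j (28.6 FPKM), and NC replicate 6 was low for Cox4i2 (0.261 FPKM).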

How the results depend on the processing

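The 55 members lower in HFD than in NC mice became 34 with the replicate block and 15 with the epididymal score as a covariate, which also moved the median log2 fold change of the nuclear subunits from -0.56 to -0.32 and that of the mitochondrially coded members from -0.98 to -0.38. That covariate turned the sign of 8 of the 55, 4 of them among the named genes. The named genes whose sign turned, called or not, were Ndufa1 (0.16), Ndufa4l2 (-1.73), Ndufaf3 (0.30), Ndufaf8 (0.11), Ndufs1 (-0.63), Ndufv2 (0.062) and Sdhb (-0.67). With all 3 groups in 1 fit, 18 members were higher in SZ-A than HFD mice and 3 were lower in SZ-A than NC mice. With the 4 mice of the highest epididymal sums left out, an alternative chosen after seeing the data, 1 was lower in SZ-A than NC mice. The cause was not tested. Correlations of deviations between same-numbered mice ran from -0.41 to 0.584. Mice of different numbers were not compared, so this range cannot show whether the numbers pair mice. The labels tie the numbers to no litter, batch or day. Leaving out 1 mouse gave 45 to 68 members lower in HFD than in NC mice, 19 to 44 higher in SZ-A than HFD mice and 0 to 2 lower in SZ-A than NC mice. Of the calls, 42 of 55 and 17 of 34 stood in each of these fits. Those fits gave nuclear medians of -0.61 to -0.47, 0.33 to 0.40 and -0.22 to -0.10 and mitochondrially coded medians of -1.09 to -0.72, 0.51 to 0.998 and -0.48 to 0.02, in the same order. The call of mt-Cytb in HFD against NC mice was lost in 10 of these fits and that of mt-Co3 in 9. Over all alternatives, 3890 of 4104 values for named genes kept direction and side of the threshold, 148 fell short of it, 59 passed it and 7 turned sign.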
